A study of Mus musculus with 8 samples.

Results

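The 10 genes described here belong to the integrated stress response: Atf4, Ddit3, Trib3, Asns, Psat1, Phgdh, Chac1, Sesn2, Slc7a11 and Slc3a2. They were picked by symbol from the 32285 genes of the deposited matrices, to read translation stress in B cells that had lost the initiation factor subunit eIF3e. All 10 symbols were found, and a second identifier that carries the symbol Ddit3 held 0 UMIs (unique molecular identifiers, each standing for 1 captured transcript). Single-cell RNA-seq of the 3′ ends of transcripts was done on cells of mice 2 months old, labelled as spleen although the extraction notes also name lymph nodes, in 8 libraries that make 4 groups of 2. The cKO mice were Eif3e fl/fl Cγ1Cre Rosa26-YFP LSL, and the control mice were Cγ1Cre Rosa26-YFP LSL, so both genotypes carried the Cre, which is turned on with transcription of the Ig γ1 constant region in activated B cells, and the YFP reporter that Cre unlocks. From each genotype, total splenocytes and sorted YFP+ cells were sequenced in each of 2 batches, and every library held cells pooled from several mice. Each value below that has a library number names the batch, and p-values measure the spread between such pools. In fits with a library or batch term, they measure the spread left after differences shared by a library or batch are removed. A comparison of 2 groups with a batch term leaves 1 residual degree of freedom. Its p-values then rest largely on the spread estimated over all genes.

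In the integrated stress response, kinases that sense missing amino acids, unfolded protein, viral RNA or heme stress phosphorylate the initiation factor eIF2, which lowers bulk translation while the Atf4 message is translated more. ATF4 protein then drives genes for amino acid synthesis and uptake, for glutathione handling and, when stress lasts, for growth arrest and death. Much of the control of Atf4 is therefore at translation, which transcript counts do not read. Activated B cells and plasma cells use parts of the same programme in health, since division and antibody secretion both need large amounts of amino acids.

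ATF4 binds composite C/EBP-ATF elements, and the promoters of the 10 genes were searched for the core of that element because it is the sequence that ties the enzymes and transporters to Atf4. The window ran from 250 bases before to 50 bases after each RefSeq start site (GRCm38.p6), and the letters TGATGNAA were looked for on both strands. They were found in 4 of the 10 genes, against 4.51% of the 27025 genes in the table and 3.97% of the 32851 promoter windows of the same length. The 5 matches are shown in 30 bases each, read 5′ to 3′ on the gene's own strand, with the match in capitals. The 2 windows of Slc7a11 overlap each other.

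Trib3, chr2:152344028-152344057, minus strand: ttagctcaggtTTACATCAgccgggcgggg
Asns, chr6:7693214-7693243, minus strand: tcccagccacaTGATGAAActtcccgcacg
Chac1, chr2:119351038-119351067, plus strand: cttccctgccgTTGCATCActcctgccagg
Slc7a11, chr3:50443661-50443690, minus strand: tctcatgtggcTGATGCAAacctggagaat
Slc7a11, chr3:50443642-50443671, minus strand: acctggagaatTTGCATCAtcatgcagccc

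The match lay 14 bases after the start site in Trib3 and before it in the others, by 23 bases in Asns, 193 bases in Chac1, and 66 and 47 bases in Slc7a11. Atf4, Ddit3, Psat1, Phgdh, Sesn2 and Slc3a2 had no match to these letters in the window. A match is a description of the letters and not of binding, which was not measured here.

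The matrices held 83967 barcodes, of which 83704 passed the study's filter, and 67502 of those cells were B-lineage cells. Libraries held 71894780 to 105224903 UMIs. Any pair of libraries shared 51 to 102 cell barcodes. Xist, transcribed from the inactive X chromosome, stood at 524 and 638 CPM in the libraries of the cKO pool of batch 1 and at 0.158 to 0.348 CPM in the other libraries, while Ddx3y, a Y-linked gene, stood at 72.8 and 52.0 CPM in that pool and at 80.3 to 139.6 CPM elsewhere. That pool thus held female and male cells, and in batch 1 sex and genotype cannot be told apart. In batch 2 no library carried Xist beyond that low level. B cell classes were rebuilt from fixed markers, with the stress genes left out of the clustering, and may differ from the classes of the study. Each class name is to be read as "like". Levels are CPM (the UMIs of the gene in every 1000000 UMIs of the class in 1 library), and in such sums more transcripts per cell and more expressing cells cannot be told apart. For Atf4 and Ddit3 the share of YFP+ activated cells with a UMI is given below. The activated class, named from markers of activation before germinal centre entry, showed all 10 of its markers in each YFP+ library, with summed levels of 1257 and 1247 CPM in control and 1543 and 1430 CPM in cKO. Its YFP+ cells numbered 319 and 340 in the control libraries against 1785 and 1808 in the cKO libraries. Its T cell markers summed to 22.7 and 35.6 CPM in control and 31.6 and 28.0 CPM in cKO, and its plasma cell markers to 1010 and 1049 CPM in control and 814 and 761 CPM in cKO.

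Eif3e, the deleted gene, was read from 3′ tags that may lie outside the deleted part. The YFP+ activated class held 274 and 284 CPM in control and 163 and 166 CPM in cKO libraries. In all YFP+ B-lineage cells it was 225 and 267 CPM in control and 234 and 280 CPM in cKO, and the same cells of the total libraries held 218 and 261 CPM in control and 231 and 278 CPM in cKO. Both cKO libraries were lower in the activated class, while the sums over all B cells overlapped. Within that class, a dividing cluster (led by Fabp5, Npm1 and Top2a) of YFP+ cells held 265 and 283 CPM in control against 123 and 125 CPM in cKO. Its non-dividing counterpart (led by Il4i1, Fcer2a and Mdn1) held 292 and 287 CPM in control against 247 and 245 CPM in cKO. A cluster of the plasma cell class led by Slpi, Ighg1 and Xbp1 held 101 CPM of Eif3e in cKO YFP+ 1 (25 cells) against 146 and 176 CPM in control YFP+ libraries (228 and 371 cells), and its Atf4 level was 229 CPM against 135 and 139 CPM. In the same sums Lyz2, a myeloid marker, was at 55.0 CPM against 3.06 and 8.12 CPM and Mki67 577 CPM against 1414 and 773 CPM, and their part was not tested. Only 19 of its cells came from cKO YFP+ 2, under the 20 needed for a sum, so this cluster had no test.

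The main question was whether the stress genes changed in YFP+ activated cells, a class where Eif3e was lower in both cKO libraries. YFP marks cells of every class in which Cre has acted. Of the 10 genes, 8 had enough counts to be tested, and 1 rose and 1 fell. In the same comparison 11% of the 12823 genes tested were called, 5% higher and 6% lower in cKO. Atf4 rose, Ddit3 fell, and no other of the 8 was called, while Chac1 and Slc7a11 had too few counts to be tested. With the batch number as a block, a fit with 1 residual degree of freedom, 3 of the 8 were called, against 28.6% of all genes. The median log2 fold change of the 8 genes was 0.08, beside -0.01 over all genes tested.

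Atf4 (chr15:80255184-80257541, GRCm38, plus strand), the transcription factor at the centre of the response, stood at 89.4 and 104 CPM in control YFP+ activated cells and at 264 and 332 CPM in cKO YFP+ activated cells. Both cKO libraries lay above both control libraries, and the means were 298 ± 48.2 and 96.6 ± 10.2 CPM (SD, n = 2), a ratio of 3.09. The log2 fold change was 1.71 ± 0.22 (SE) with an adjusted p of 0.00186 in edgeR's quasi-likelihood test over all genes. This call was lost when classes were built on control libraries alone, as given below, while the direction stayed. Within batch 1 the log2 ratio was 1.56 and within batch 2 it was 1.68. With 2000 UMIs kept per cell, 17.7% and 18.3% of control cells and 30.1% and 35.8% of cKO cells had an Atf4 UMI. In the same sums Myc, a driver of B cell growth, stood at 162 and 242 CPM in control and 124 and 129 CPM in cKO. Mki67, a marker of division, stood at 873 and 424 CPM in control and 367 and 231 CPM in cKO. Both cKO libraries lay below both control libraries for these markers, and their part in the Atf4 difference was not tested. Lyz2 stood at 0.926 and 0 CPM in control and 6.84 and 1.71 CPM in cKO, while the 10 myeloid markers summed to 151 and 129 CPM in control (9 and 4 of them above 0) and 75.0 and 69.6 CPM in cKO (8 and 6 above 0), and their part was not tested.

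**Figure D1:**
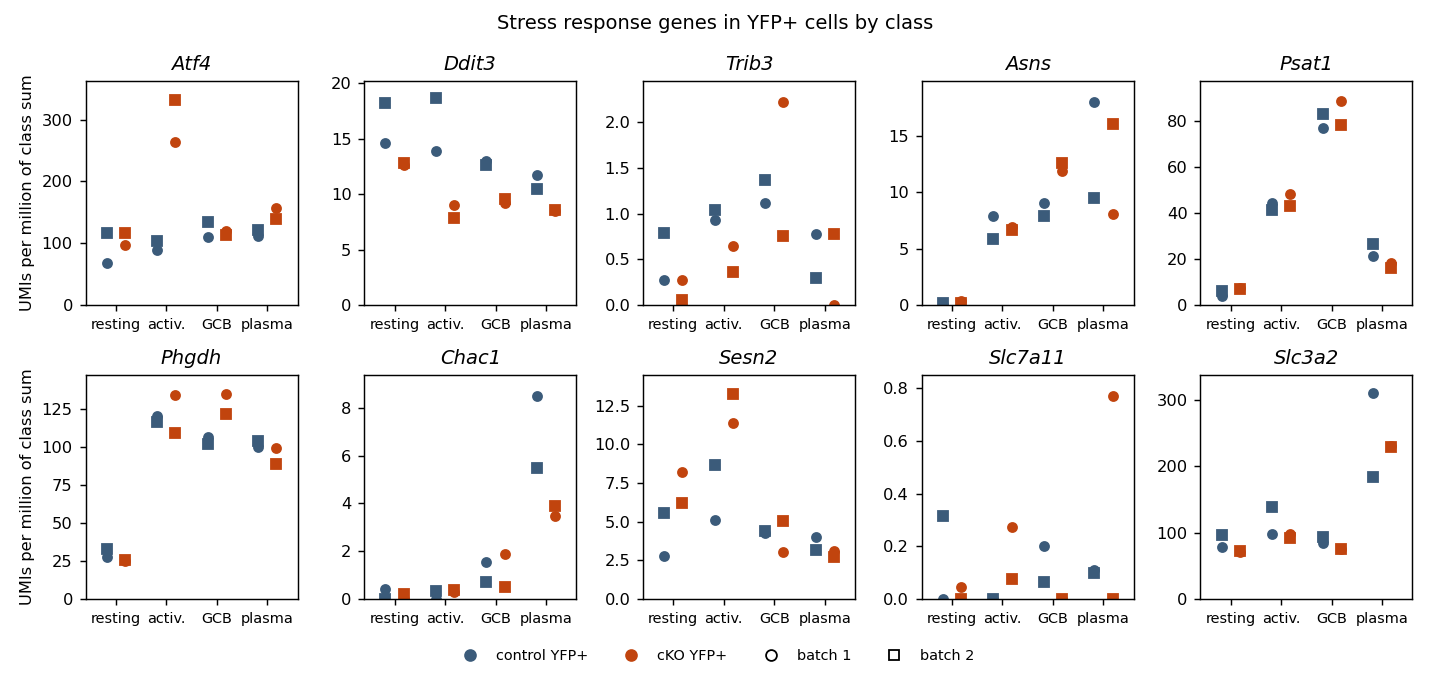
Levels (CPM of the class sum, 1 panel per gene, each with its own axis) of the 10 genes in resting, activated, germinal centre and plasma cell-like YFP+ cells, with 1 point per library (circle batch 1, square batch 2) for control and cKO. In the activated class the cKO points of Atf4 sit at 264 and 332 CPM, above the control points at 89.4 and 104 CPM, while the points of Asns, Psat1 and Phgdh lie close together.

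The 2 clusters of the activated class were then read one by one. In the dividing cluster Atf4 was 80.6 and 81.5 CPM in control against 311 and 375 CPM in cKO YFP+ cells, a ratio of means of 4.23 (log2 fold change 2.12 ± 0.18 SE, edgeR adjusted p 5.7e-05). There 1 of 7 genes tested was called, against 25.7% of all genes. In the non-dividing cluster Atf4 was 107 and 134 CPM in control and 164 and 249 CPM in cKO (0.92 ± 0.34, edgeR adjusted p 0.211), the groups did not overlap, and 0 of 7 genes were called against 2.21% of all genes. An unadjusted p under 0.05 was found there for 4 of the 7 and for 1404 of 10833 genes. With the batch block 33.2% of all genes were called in the dividing cluster, with Atf4 (2.10, edgeR adjusted p 9.36e-08) and Sesn2 (0.81, edgeR adjusted p 0.0280) higher. In the non-dividing cluster the block called 16.2% of all genes and 5 of the 7, with Atf4 higher (0.89, edgeR adjusted p 3.19e-07) and Ddit3 (-0.96, edgeR adjusted p 0.00295), Asns (-1.80, edgeR adjusted p 0.00319), Phgdh (-0.48, edgeR adjusted p 0.0411) and Slc3a2 (-0.51, edgeR adjusted p 0.0115) lower. The dividing cluster gave 66.6% and 57.3% of the UMIs of the activated class in control against 68.0% and 65.6% in cKO YFP+ libraries.

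**Figure D2:**
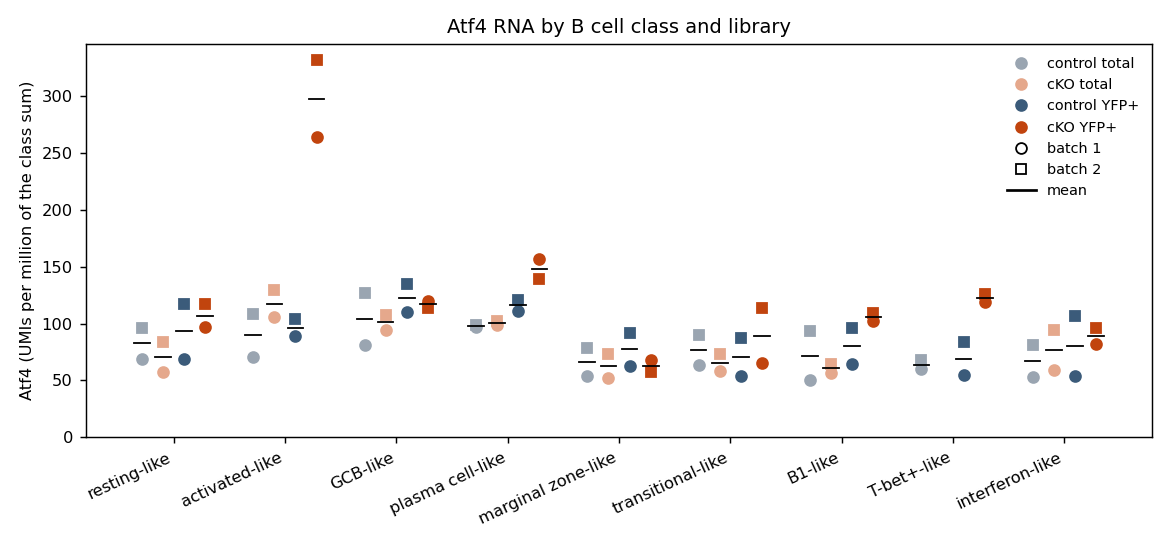
Atf4 level (CPM of the class sum) in 9 B cell classes, with 1 point per library for each genotype and sort and a bar at each group mean. The cKO YFP+ points of the activated class, at 264 and 332 CPM, stand above all other points, and most other classes lie between 50.2 and 157 CPM.

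Ddit3 (chr10:127290774-127296288, plus strand) encodes CHOP, the factor linked to cell death under lasting stress. It stood at 13.9 and 18.7 CPM in control and at 9.01 and 7.83 CPM in cKO YFP+ activated cells. The groups did not overlap and the direction was opposite to that of Atf4, with a log2 fold change of -0.86 ± 0.24 (SE, edgeR adjusted p 0.0471). Cells deep enough to keep 2000 UMIs held medians of 9479 and 5427.5 UMIs in control and 12151 and 16483 UMIs in cKO. At full depth 15.8% and 15.2% of these control cells and 14.3% and 14.5% of these cKO cells had a Ddit3 UMI. With 2000 UMIs kept per cell the shares were 4.42% and 5.49% against 2.43% and 2.05%. The fall is thus one relative to all UMIs of the cell. The call was narrow: it was lost with DESeq2 (adjusted p 0.0998), with RLE size factors (0.0502), without doublets (0.0501), with all 8 libraries in 1 model (0.0951) and with control-defined classes (-0.35, 0.597). It was also lost without cKO YFP+ 1 (0.0728), cKO YFP+ 2 (0.198) or control YFP+ 2 (0.168), fits in which the lone library of a group is assumed to vary like those of the other group. The direction was the same in each case. In the non-dividing cluster Ddit3 was 25.7 and 30.8 CPM in control and 14.4 and 12.2 CPM in cKO (-0.96 ± 0.31, edgeR adjusted p 0.138), and in the dividing cluster 7.99 and 9.66 CPM in control and 6.47 and 5.54 CPM in cKO (-0.49 ± 0.29, edgeR adjusted p 0.246).

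Trib3 (chr2:152337422-152344032, minus strand), a pseudokinase that restrains ATF4 and AKT signalling, was barely detected. Control YFP+ activated cells held 4 and 3 Trib3 UMIs and cKO YFP+ activated cells 21 and 14 UMIs, which is 0.926 and 1.04 CPM in control and 0.642 and 0.358 CPM in cKO. The log2 fold change was -0.89 ± 0.72 (SE, edgeR adjusted p 0.479), so a difference was not detectable at this depth.

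Among the stress genes, the amino acid synthesis enzymes Asns, Psat1 and Phgdh were not called in the YFP+ activated class. Asns (chr6:7675169-7693254, minus strand), asparagine synthetase, stood at 7.87 and 5.88 CPM in control and 6.91 and 6.70 CPM in cKO (log2 fold change 0.05 ± 0.26 SE, edgeR adjusted p 0.949), with the cKO libraries inside the range of the control libraries. Its clusters went opposite ways and were not called without the batch block: in the dividing cluster it was 4.52 and 6.64 CPM in control and 9.17 and 8.70 CPM in cKO (0.78 ± 0.31, edgeR adjusted p 0.0934), and in the non-dividing cluster, from 21 and 6 UMIs in control and 22 and 39 UMIs in cKO, the log2 fold change was -1.82 ± 0.52 (edgeR adjusted p 0.0886). Psat1 (chr19:15904678-15947337, minus strand), which makes phosphoserine, stood at 44.2 and 41.5 CPM in control and 48.5 and 43.1 CPM in cKO (0.17 ± 0.17, edgeR adjusted p 0.586). Phgdh (chr3:98313170-98339990, minus strand), the first enzyme of serine synthesis, stood at 121 and 117 CPM in control and 135 and 109 CPM in cKO (0.11 ± 0.18, edgeR adjusted p 0.754). For both serine enzymes the libraries of the 2 genotypes overlapped. The annotation lists a Phgdh pseudogene, and reads of the gene and its pseudogene may not be fully separable.

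Sesn2 (chr4:132492032-132510501, minus strand), which senses leucine and restrains TORC1, stood at 5.09 and 8.65 CPM in control and 11.4 and 13.3 CPM in cKO YFP+ activated cells. Both cKO libraries were above both control libraries. The log2 fold change was 0.97 ± 0.30 (SE, edgeR adjusted p 0.0706), and with the batch number as a block it was called (0.96, adjusted p 0.00448). Chac1 (chr2:119351229-119354381, plus strand), which breaks down glutathione, had 0 and 1 UMIs in control and 9 and 14 UMIs in cKO YFP+ activated cells, too few to be tested. As levels these were 0 and 0.346 CPM in control and 0.275 and 0.358 CPM in cKO, so the groups overlapped.

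The 2 transporter genes encode the chains of the cystine importer. Slc7a11 (chr3:49892526-50443614, minus strand), the light chain, had 0 UMIs in both control and 9 and 3 UMIs in the cKO YFP+ activated libraries. The limit that a count of 0 allows over the control group (3 UMIs, 0.416 CPM) was above the cKO level of 0.167 CPM, so no fold is given. Of the 1303 Slc7a11 UMIs of all kept cells, 85 (6.52%) came from B-lineage cells. Slc3a2 (chr19:8706882-8723369, minus strand), the heavy chain CD98 that also carries leucine importers, stood at 98.4 and 138 CPM in control and 98.4 and 91.7 CPM in cKO YFP+ activated cells (log2 fold change -0.24 ± 0.22 SE, edgeR adjusted p 0.524). The cKO libraries were at or below the lower control library.

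Atf4 and Eif3e were set side by side because the deletion defines the cKO. Within each batch the log2 ratio of cKO to control YFP+ in activated cells was -0.75 and -0.77 for Eif3e, beside 1.56 and 1.68 for Atf4. In the dividing cluster the Eif3e ratios were -1.10 and -1.17 and those of Atf4 1.95 and 2.20. In the non-dividing cluster the Eif3e ratios were -0.24 and -0.23 and those of Atf4 0.62 and 0.90. Of these 2 clusters, the one with the lower Eif3e level in cKO had the larger Atf4 ratio in both batches. The clusters share libraries and mice, so this is a description. Atf4 was also higher where Eif3e overlapped between genotypes. In 1 cluster of the resting class Atf4 was 51.9 to 99.8 CPM in control and 141 to 155 CPM in cKO YFP+ libraries. Eif3e there was 254 to 285 CPM in control and 269 to 324 CPM in cKO. The control sums of that cluster held only 154239 and 400828 UMIs. In YFP+ T-bet+ cells, given below, Eif3e overlapped and Atf4 did not. The sums of YFP+ T-bet+ cells held only 586022 and 373500 UMIs in cKO, against 9617561 and 10944825 UMIs in control. Mki67 in them was 108 to 109 CPM in control and 246 to 265 CPM in cKO, and its part was not tested.

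**Figure D3:**
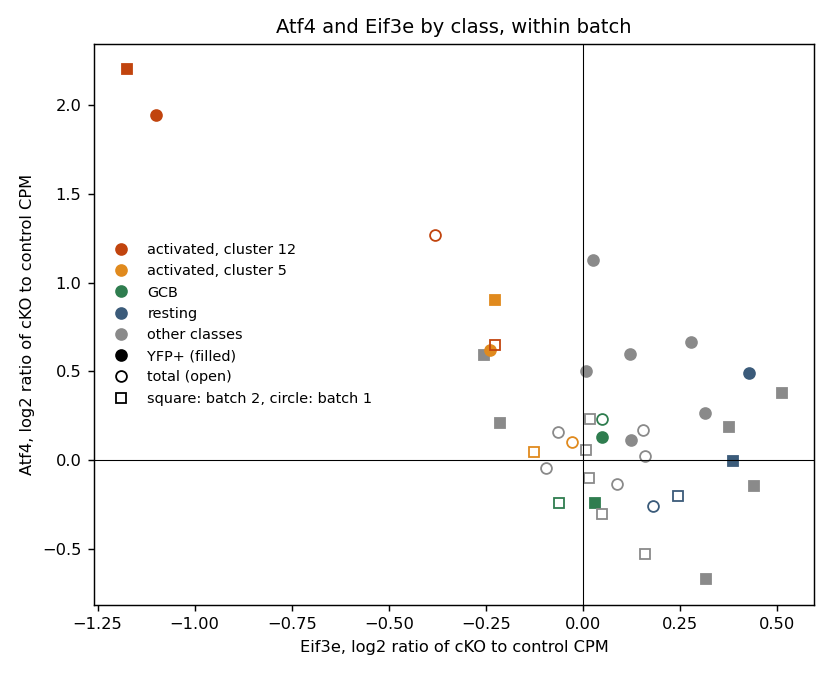
Within-batch log2 ratio of cKO to control for Eif3e (x axis) and Atf4 (y axis), 1 point per class or cluster and batch, filled for YFP+ and open for total libraries. The points of the dividing activated cluster of YFP+ cells lie furthest up and left, at -1.10 and -1.17 for Eif3e and 1.95 and 2.20 for Atf4.

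In YFP+ resting cells none of the 6 genes tested was called by edgeR or DESeq2, against 0.15% of all genes, and 1 (Sesn2) had an unadjusted p under 0.05, as did 933 of 12010 genes. In the cluster with most cKO YFP+ UMIs of the class (15507987 of 21664438 and 12999403 of 18605850), Eif3e was 287 to 359 CPM in cKO. Control YFP+ libraries held 228 to 249 CPM there, from sums of 329035 and 148349 UMIs. Eif3e was thus not lower in cKO in that cluster. Atf4 was 68.9 and 117 CPM in control and 96.8 and 117 CPM in cKO (log2 fold change 0.31 ± 0.34 SE, edgeR adjusted p 0.964), so the libraries overlapped. Sesn2 was 2.79 and 5.54 CPM in control and 8.22 and 6.23 CPM in cKO (0.91 ± 0.38, edgeR adjusted p 0.636). Psat1 was 3.90 and 6.01 CPM in control and 7.34 and 7.15 CPM in cKO (0.66 ± 0.32, edgeR adjusted p 0.744). With the batch number as a block these 3 genes were called, Atf4 at 0.35 (adjusted p 0.00868), Sesn2 at 0.93 (adjusted p 0.00495) and Psat1 at 0.68 (adjusted p 0.0440), and 19.6% of all genes were called too. With the unnamed cluster led by Klhdc2, St7 and Il4i1 added to the class, an alternative chosen after seeing the data, the blocked fit called none of 6 (Atf4 0.27, Psat1 0.76 and Sesn2 1.06, edgeR adjusted p 0.211, 0.0631 and 0.0524) against 15.2% of all genes. Ddit3 was 14.6 and 18.2 CPM in control and 12.6 and 12.8 CPM in cKO (-0.25 ± 0.24, edgeR adjusted p 0.952), Phgdh 27.6 and 33.2 CPM in control and 24.8 and 25.5 CPM in cKO (-0.16 ± 0.23, edgeR adjusted p 0.968), and Slc3a2 78.0 and 97.0 CPM in control and 70.7 and 72.8 CPM in cKO (-0.18 ± 0.25, edgeR adjusted p 0.968). For these 3 genes both cKO libraries lay below both control libraries, with no call. Trib3, Asns, Chac1 and Slc7a11 held 0 to 8 UMIs in each library and were not tested. The clusters behind the class differed by genotype: one cluster gave 1661 of 1799 and 2005 of 2273 cells in control YFP+ and 79 of 4097 and 50 of 3394 cells in cKO YFP+ libraries. The cluster named above with Atf4 at 141 to 155 CPM in cKO gave 5854335 and 5400678 UMIs of the class in cKO YFP+ libraries. In control YFP+ libraries it gave 154239 of 7180644 and 400828 of 6320440 UMIs. In the cluster with most UMIs of each genotype, Atf4 was 75.1 to 106 CPM in cKO and 69.6 to 119 CPM in control. The part of these shares in the Atf4 values was not tested.

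In YFP+ germinal centre cells none of 9 genes tested was called by edgeR or DESeq2, against 1.17% of all genes (7.47% with the batch block, again with none of the 9), and 1 (Asns) had an unadjusted p under 0.05, as did 1042 of 12125 genes. Atf4 was 110 and 135 CPM in control and 120 and 114 CPM in cKO (log2 fold change -0.04 ± 0.23 SE, edgeR adjusted p 0.999). Asns was 9.07 and 7.88 CPM in control and 11.9 and 12.6 CPM in cKO (0.57 ± 0.25, edgeR adjusted p 0.565), and Phgdh 107 and 102 CPM in control and 135 and 122 CPM in cKO (0.33 ± 0.21, edgeR adjusted p 0.835). Ddit3 was 12.9 and 12.7 CPM in control and 9.20 and 9.55 CPM in cKO (-0.42 ± 0.25, edgeR adjusted p 0.813), and Slc3a2 84.1 and 93.5 CPM in control and 74.5 and 74.9 CPM in cKO (-0.22 ± 0.22, edgeR adjusted p 0.980). The groups did not overlap for these 4 genes. Psat1 (77.2 and 83.0 CPM in control, 88.5 and 78.4 CPM in cKO), Sesn2 (4.28 and 4.41 CPM in control, 3.01 and 5.02 CPM in cKO), Trib3 and Chac1 overlapped, and Slc7a11 held 0 UMIs in cKO against 5 and 3 UMIs in control. The class held 1657 and 3397 control and 345 and 209 cKO cells. Eif3e in these cells was 263 and 297 CPM in control and 272 and 303 CPM in cKO. Atf4 and Eif3e thus both overlapped between genotypes in the germinal centre class.

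In YFP+ plasma cells none of 8 genes tested was called by edgeR or DESeq2, against 1.14% of all genes (2.8% with the batch block, with none of the 8), and 1 (Chac1) had an unadjusted p under 0.05, as did 1037 of 11485 genes. Atf4 was 111 and 121 CPM in control and 157 and 140 CPM in cKO (log2 fold change 0.38 ± 0.27 SE, edgeR adjusted p 0.851). Chac1 had 154 and 111 UMIs in control and 9 and 10 UMIs in cKO plasma cells, or 8.51 and 5.47 CPM and 3.47 and 3.91 CPM (-0.88 ± 0.41, edgeR adjusted p 0.552). Psat1 was 21.4 and 26.7 CPM in control and 18.5 and 16.0 CPM in cKO (-0.46 ± 0.28, edgeR adjusted p 0.752), Ddit3 11.8 and 10.5 CPM in control and 8.49 and 8.60 CPM in cKO (-0.35 ± 0.31, edgeR adjusted p 0.920), Phgdh 100.5 and 104 CPM in control and 99.6 and 89.1 CPM in cKO, and Sesn2 4.03 and 3.15 CPM in control and 3.09 and 2.74 CPM in cKO. All 4 were lower in both cKO libraries, with no call. Lyz2, a myeloid marker, stood at 79.9 CPM in cKO YFP+ 1 and at 5.08 to 7.79 CPM in the other YFP+ plasma sums, while all 10 myeloid markers summed to 305 and 281 CPM in cKO and 316 and 296 CPM in control, and its part in these values was not tested. Asns (18.0 and 9.46 CPM in control, 8.11 and 16.0 CPM in cKO) and Slc3a2 (309 and 184 CPM in control, 230.5 and 229 CPM in cKO) overlapped, and Trib3 and Slc7a11 held 0 to 2 UMIs in each cKO library. The class held 897 and 1048 control and 114 and 97 cKO cells.

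The classes depended on how cells of the cKO were placed. When classes were built on control libraries alone and each cKO cell took the class of its nearest control cells, the germinal centre class grew to 903 and 676 cKO YFP+ cells and took 500 of 709 and 442 of 797 cells of the dividing activated cluster. Atf4 in YFP+ germinal centre cells was then 110 and 134 CPM in control and 277 and 349 CPM in cKO (log2 fold change 1.45, edgeR adjusted p 0.00461), and Sesn2 was 4.18 and 4.37 CPM in control and 9.76 and 12.4 CPM in cKO (1.47, edgeR adjusted p 0.00304). Ddit3 was the third gene called there and fell, from 12.8 and 12.6 CPM in control to 6.55 and 5.51 CPM in cKO (-0.98, edgeR adjusted p 0.0109). These 3 calls stood among 27.6% of all genes. In the activated class so defined, Atf4 was 80.7 and 102 CPM in control and 191 and 268 CPM in cKO (1.34, edgeR adjusted p 0.0544), and none of the 10 genes was called against 3.62% of all genes. With classes so defined, both cKO libraries stood above both control libraries for Atf4 in the germinal centre class and in the activated class.

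Over all YFP+ B-lineage cells summed, Chac1 fell and no other of the 10 genes was called, against 7.53% of all genes called and 4.43% called lower. Chac1 had 203 and 148 UMIs in control and 33 and 33 UMIs in cKO, or 2.40 and 1.42 CPM and 0.389 and 0.327 CPM (log2 fold change -2.41 ± 0.38 SE, edgeR adjusted p 0.0137). Plasma cells gave 75.9% and 75.0% of these UMIs in control, and with plasma cells left out the log2 fold change was -1.09 (edgeR adjusted p 0.247). Atf4 was 88.04 and 118 CPM in control and 162 and 195 CPM in cKO (0.76 ± 0.33, edgeR adjusted p 0.254), and activated cells gave 5.18% and 2.43% of its UMIs in control and 62.9% and 65.8% in cKO. With the batch block 4 genes were called against 19.5% of all genes: Atf4 (0.78, adjusted p 0.0134), Asns (-0.82, adjusted p 0.0188), Chac1 (-2.39, adjusted p 0.00189) and Slc3a2 (-0.58, adjusted p 0.0323). Asns was 7.48 and 6.03 CPM in control and 4.09 and 3.67 CPM in cKO, Psat1 33.5 and 46.8 CPM and 29.9 and 24.6 CPM, Slc3a2 134 and 119.7 CPM and 86.7 and 84.9 CPM, and Ddit3 13.5 and 14.0 CPM and 11.3 and 11.9 CPM, each lower in both cKO libraries. Sesn2 was 6.31 and 6.16 CPM in control and 8.97 and 9.35 CPM in cKO, higher in both. Phgdh was 79.1 and 85.8 CPM in control and 79.9 and 61.6 CPM in cKO, with overlap, and Trib3 and Slc7a11 stayed below 1 CPM in each library. Sums over the lineage mix the share of each class with the level in it, and the share of activated cells was 3.68% and 2.96% in control and 18.9% and 17.5% in cKO. Plasma cells gave 18102944 of 84664764 and 20299231 of 104463873 UMIs in control. In cKO they gave 2590178 of 84880112 and 2558545 of 100871825 UMIs. Germinal centre cells gave 25020537 and 46047703 UMIs in control and 6304943 and 3980238 UMIs in cKO. Within plasma cells Asns and Slc3a2 overlapped between genotypes, as given above. The part of these shares in the values of this paragraph was not tested.

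In total libraries, where most B cells were outside the YFP+ gate, edgeR called none of the 10 genes over all B-lineage cells, against 0.0136% of all genes. DESeq2 called 1 of the 10, and its share of all genes is not given here. In the edgeR fit an unadjusted p under 0.05 was found for 2 of the 10 and for 1228 of 14724 genes. Atf4 was 64.8 and 92.1 CPM in control and 67.2 and 88.3 CPM in cKO, so the groups overlapped (log2 fold change 0.06 ± 0.29 SE, edgeR adjusted p 1). Asns was 0.778 and 1.19 CPM in control and 2.07 and 3.46 CPM in cKO (1.56 ± 0.42, edgeR adjusted p 0.306; DESeq2 adjusted p 0.0440). Psat1 was 10.5 and 10.9 CPM in control and 16.8 and 17.0 CPM in cKO (0.72 ± 0.17, edgeR adjusted p 0.251). With the batch block 11.6% of all genes and 2 of the 10 were called, Asns (1.55, adjusted p 0.0124) and Psat1 (0.72, adjusted p 0.00843). Class shares moved in the same libraries: germinal centre cells made up 1.02% and 0.628% of B-lineage cells in control and 2.54% and 3.40% in cKO, and activated cells 5.21% and 5.43% in control and 7.99% and 7.47% in cKO. Their part in these values was not tested. Sesn2 was 4.53 and 4.51 CPM in control and 5.01 and 5.81 CPM in cKO, without overlap, and Slc3a2 was 86.2 and 99.1 CPM in control and 79.0 and 83.0 CPM in cKO, also without overlap. Ddit3 (15.9 and 22.3 CPM in control, 14.6 and 16.7 CPM in cKO) and Phgdh (48.5 and 52.97 CPM in control, 51.4 and 52.5 CPM in cKO) overlapped. Trib3, Chac1 and Slc7a11 stayed below 0.8 CPM in each total library.

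In total resting cells none of 6 genes was called by edgeR or DESeq2, against 0.199% of all genes, with 1 (Sesn2) at an unadjusted p under 0.05, as were 739 of 12571 genes. Atf4 was 68.9 and 96.3 CPM in control and 57.6 and 83.7 CPM in cKO, Ddit3 15.2 and 20.4 CPM and 13.5 and 16.6 CPM, and Phgdh 25.2 and 33.9 CPM and 26.1 and 28.5 CPM, with overlap for all 3. Psat1 (4.49 and 4.15 CPM in control, 5.58 and 6.61 CPM in cKO) and Sesn2 (3.58 and 3.36 CPM in control, 4.66 and 5.55 CPM in cKO) were higher and Slc3a2 (72.4 and 87.3 CPM in control, 69.3 and 70.1 CPM in cKO) lower in both cKO libraries. Trib3, Asns, Chac1 and Slc7a11 stayed below 1 CPM and were not tested. The batch block called Psat1 (0.58, adjusted p 0.0260) and Sesn2 (0.64, adjusted p 0.0254) among 18.6% of all genes. With the same unnamed cluster added, the blocked fit called Sesn2 (0.76, edgeR adjusted p 0.0304) and not Psat1 (0.56, edgeR adjusted p 0.0851), among 15.5% of all genes. Different clusters held most of the class in the 2 genotypes: the cluster led by Cd55, Plaur and Pgap1 gave 2828 of 2924 and 3698 of 3747 cells in control and 301 of 3543 and 300 of 3431 cells in cKO, and the cluster led by Lifr, Snx29 and Rflnb gave 32 and 26 cells in control and 2929 and 2976 cells in cKO. The genotype effect was then compared between the sorts: for resting cells none of 7 genes differed by edgeR or DESeq2, 0% of all genes were called, and none of the 7 had an unadjusted p under 0.05. With the genotype and batch number together as block 1.61% of genes were called, with Atf4 among them (0.49, adjusted p 0.0308). Comparing YFP+ with total resting cells of cKO, edgeR and DESeq2 called none of 6 genes. By edgeR 0% of all genes were called, with no member at an unadjusted p under 0.05. The block left 1 residual degree of freedom and called 26.3% of genes, with Atf4 (0.67, edgeR adjusted p 7.21e-38) and Sesn2 (0.56, edgeR adjusted p 0.00134) among them. That Atf4 p-value is not read as a measure of the spread between pools. The resting cluster with Atf4 at 141 to 155 CPM in cKO YFP+ libraries gave 5854335 of 21664438 and 5400678 of 18605850 UMIs there. In cKO total libraries it gave 1080194 of 19546372 and 786155 of 20727652 UMIs, and its part was not tested. In control, YFP+ against total resting cells gave none of 6 by edgeR and DESeq2 against 0.0253% of genes, and none against 1.63% with the block.

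In total activated cells, where YFP+ and YFP- cells are mixed, Atf4 was 70.9 and 109 CPM in control and 106 and 129 CPM in cKO (log2 fold change 0.43 ± 0.27 SE, edgeR adjusted p 1), with none of 7 genes called against 0.43% of all genes and 1 (Asns) at an unadjusted p under 0.05, as were 577 of 10686 genes. Its dividing cluster held only 58 and 57 control and 82 and 75 cKO cells, with Atf4 at 65.1 and 102 CPM in control and 157 and 159 CPM in cKO (0.94 ± 0.24, edgeR adjusted p 0.0958). There none of 7 was called against 0.896% of all genes, and 3 had an unadjusted p under 0.05, as did 939 of 9039 genes. In the non-dividing cluster none of 6 genes tested was called against 0.202% of all genes, and none had an unadjusted p under 0.05. With the batch block Atf4 was called in total activated cells (0.45, edgeR adjusted p 0.00502, against 6.54% of all genes) and in their dividing cluster (0.96, edgeR adjusted p 0.00623, against 4.09%), and no other of the 10 genes was. In the non-dividing cluster the block did not call Atf4 (0.13, edgeR adjusted p 0.654, against 5.18%). The groups did not overlap in the dividing cluster, and Eif3e there was 267 and 280 CPM in control and 205 and 239 CPM in cKO.

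Among the remaining classes edgeR called none of the genes tested. In YFP+ libraries all genes were called at 0.105% in marginal zone, 0.0545% in transitional, 2.07% in B1, 0.0466% in T-bet+ and 1.12% in interferon-response cells, with 4 to 7 of the 10 genes tested. An unadjusted p under 0.05 was found for Atf4 in T-bet+ cells (466 of 10725 genes) and Phgdh in interferon-response cells (552 of 7174 genes). In total libraries the shares were 1.84% in germinal centre, 0.0902% in plasma, 0.0178% in marginal zone, 0.018% in transitional, 0.204% in B1 and 0.108% in interferon-response cells, with an unadjusted p under 0.05 for Asns in germinal centre cells (877 of 9544 genes). YFP+ T-bet+ cells showed Atf4 at 54.7 and 83.4 CPM in control against 119 and 126 CPM in cKO, without overlap (log2 fold change 0.85 ± 0.39 SE, edgeR adjusted p 0.999). Eif3e overlapped there at 289.8 and 339 CPM in control and 295 and 284 CPM in cKO. The cKO sums of T-bet+ cells were small, as given above. YFP+ B1 cells showed Atf4 at 64.7 and 96.2 CPM in control against 103 and 109 CPM in cKO (0.47 ± 0.29, edgeR adjusted p 0.670). With the batch block Atf4 was called in YFP+ B1 cells (0.51, edgeR adjusted p 0.00935, against 14.8% of all genes), and none of the 10 genes was called in the other classes of this paragraph. There the block called 2.35% of all genes in marginal zone, 0.509% in transitional, 0.569% in T-bet+ and 4.07% in interferon-response cells of YFP+ libraries. In total libraries it called 4.46% in germinal centre, 4.96% in plasma, 0.909% in marginal zone, 1.92% in transitional, 4.58% in B1 and 2.55% in interferon-response cells.

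T cells of the total libraries, outside the B lineage, were read for the same genes. None of 8 genes tested was called by edgeR, against 1.89% of all genes, and Psat1 (log2 fold change 1.14 ± 0.31 SE, edgeR adjusted p 0.167) and Trib3 (-1.07 ± 0.42, edgeR adjusted p 0.380) had an unadjusted p under 0.05, as did 1639 of 13826 genes. Atf4 in these cells differed by -0.07 ± 0.27 (edgeR adjusted p 0.987). With the batch block Psat1 (1.09, edgeR adjusted p 0.0101) and Phgdh (0.39, edgeR adjusted p 0.0260) were called, against 15.2% of all genes.

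Whether the genotype effect on the stress genes was larger in activated than in resting YFP+ cells was tested as an interaction, with a term for the library since each library gives both sums. Of 8 genes tested, 1 (Atf4) was called, against 14.8% of all genes and 5.37% called higher. The Atf4 effect was larger in activated cells by 1.33 ± 0.17 on the log2 scale (SE, edgeR adjusted p 2.24e-12). For Ddit3 the difference was -0.63 ± 0.24 (edgeR adjusted p 0.0603), and for Sesn2 it was -0.02 ± 0.33 (edgeR adjusted p 0.990). Without the library term 0.0155% of all genes and none of the 8 were called (Atf4 1.39, edgeR adjusted p 0.293).

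Other genes of the pathway were read from lists set beside the 10 genes. Of 30 further genes of the ATF4 programme 22 were tested in YFP+ activated cells, where 5 rose and 3 fell, against 5% and 6% of all genes, with a median log2 fold change of 0.35 beside -0.01 over all genes. Atf5, a related factor that is also translated under eIF2 phosphorylation, was 3.47 and 7.61 CPM in control and 50.4 and 58.7 CPM in cKO (log2 fold change 3.46 ± 0.32 SE, edgeR adjusted p 0.000395). Eif4ebp1, a repressor of cap-dependent translation, was 20.1 and 23.5 CPM in control and 75.6 and 75.5 CPM in cKO (1.88 ± 0.20, edgeR adjusted p 0.000744). Gpt2, an alanine transaminase, and Slc7a5, a leucine importer that pairs with Slc3a2, rose by 1.74 ± 0.42 and 0.72 ± 0.18 (edgeR adjusted p 0.0295 and 0.0318), where Slc7a5 was named after its value was seen. Nupr1, a stress-induced chromatin protein, had 0 UMIs in control and 139 UMIs over both cKO libraries, which is at least 4.65-fold higher than the limit of 3 UMIs over the control group. It passed the count filter through the cKO libraries alone, so its place among the 5 that rose is no support beside the share over all genes. The median is the same with Nupr1 at that bound. For Atf5 and Eif4ebp1 both cKO libraries stood above both control libraries.

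The 3 genes of the programme that fell were Jdp2, a repressor of AP-1, from 4.86 and 5.19 CPM to 0.947 and 0.588 CPM (-2.63 ± 0.44, edgeR adjusted p 0.00599), Cebpb, a partner of ATF4, by 1.39 on the log2 scale (edgeR adjusted p 0.0149), and Pck2, a mitochondrial enzyme, by 1.02 (edgeR adjusted p 0.0403). Among the genes of the programme that were not called, Psph was 42.1 and 42.9 CPM in control and 40.1 and 42.8 CPM in cKO, Shmt2 81.3 and 68.8 CPM and 85.0 and 69.2 CPM, and Mthfd2 71.1 and 71.2 CPM and 78.1 and 77.3 CPM. These 3 enzymes were chosen after their values were seen, to show the range of the genes that were not called.

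**Figure D4:**
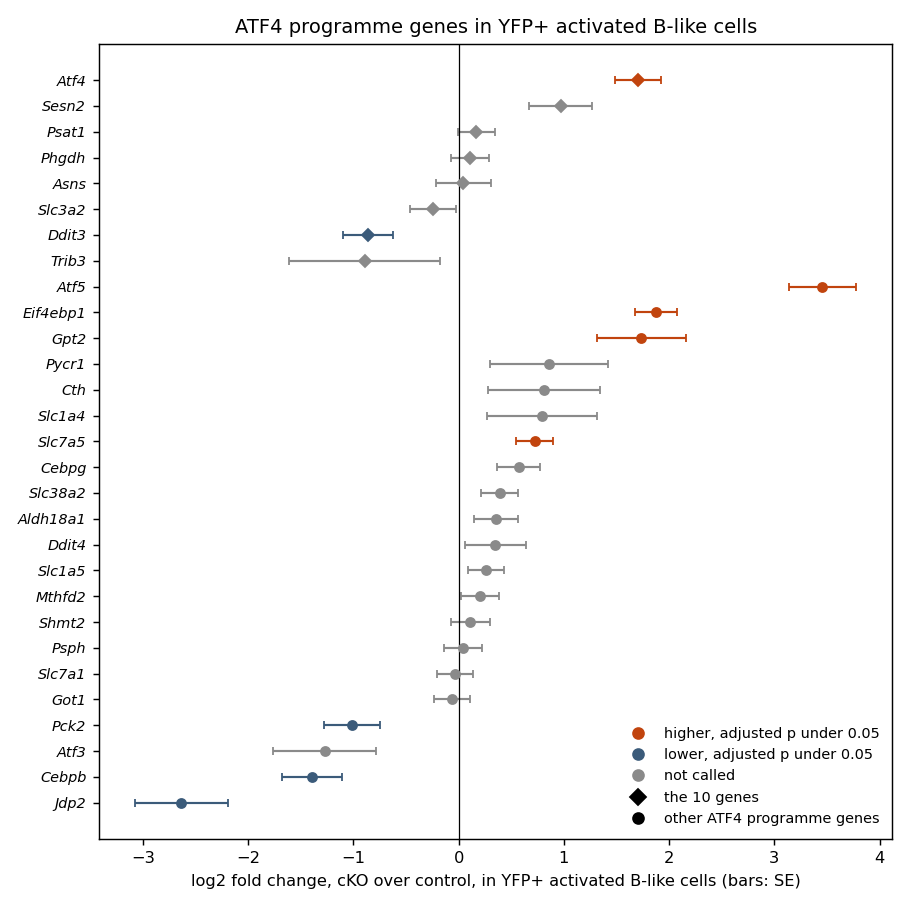
Log2 fold change of cKO over control (x axis, with SE bars) in YFP+ activated cells for the members and the other ATF4 programme genes tested, coloured by call. Nupr1 is left out because control held 0 UMIs. Atf5 lies furthest right at 3.46 and Jdp2 furthest left at -2.63, with Asns, Psat1 and Phgdh between 0.05 and 0.17.

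The lists below are read beside the share over all genes in this comparison, 5% called higher and 6% called lower, and a single call in a list of 10 to 20 genes is near that share. Upstream of Atf4, 12 of 12 genes for eIF2 kinases, eIF2 phosphatase subunits and eIF2B were tested and 1 fell: Eif2ak3 (PERK, the kinase of the endoplasmic reticulum), from 122 and 69.5 CPM to 41.3 and 24.1 CPM (-1.48 ± 0.29 SE, edgeR adjusted p 0.0117). The median of this list was 0.02. Of 20 aminoacyl-tRNA synthetases 1 fell (Farsb, -0.69, edgeR adjusted p 0.0378), with a median of 0.03. Of 14 targets of the endoplasmic reticulum arm of the unfolded protein response 1 fell (Edem1, -0.84, edgeR adjusted p 0.0196), with a median of -0.12. Of 10 dissociation and immediate early genes tested 1 fell (Nr4a1, -1.001, edgeR adjusted p 0.0364), with a median of 0.37, and Fos was 240 and 470 CPM in control and 430 and 506 CPM in cKO. Of 11 p53 targets 6 rose and 1 fell, with a median of 1.56. The 11 include Eda2r, with 0 UMIs in control and 89 UMIs in cKO, which passed the count filter through the cKO libraries alone. Phlda3 rose from 1.85 and 1.04 CPM to 26.4 and 36.9 CPM (4.47 ± 0.38, edgeR adjusted p 0.000216), Cdkn1a, the cell cycle inhibitor p21, from 6.25 and 2.77 CPM to 28.2 and 53.9 CPM (3.21 ± 0.45, edgeR adjusted p 0.00385), and Ccng1 and Bbc3 by 1.89 and 2.02. Sesn1, the sestrin on the p53 list, fell by 1.16 (edgeR adjusted p 0.0186). p53 targets moved in the same sums as Atf4 and Sesn2, and their part in those values was not tested.

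In the other YFP+ comparisons the share of all genes called was lower too, at 7.53% over the B lineage, 1.17% in germinal centre, 1.14% in plasma and 0.15% in resting cells against 11% in activated cells, so the counts of the lists are not compared between them. Over all YFP+ B-lineage cells Atf5 (1.69) and Nupr1 (3.55) rose and Cebpb (-1.13), Pycr1 (-1.83) and Pck2 (-1.10) fell among 27 tested of the ATF4 programme, 3 of 14 endoplasmic reticulum targets fell (Edem1 -1.78, Creld2 -1.60, Herpud1 -1.22), and among 11 p53 targets 4 rose (Phlda3 4.97, Eda2r 4.46, Cdkn1a 2.57, Ccng1 1.13) and Trp53inp1 fell (-1.66), all by edgeR at an adjusted p between 0.00343 and 0.0492. In germinal centre cells Egr1 alone was called over these lists (1.25, edgeR adjusted p 0.0210) and in plasma cells Phlda3 alone (3.33, edgeR adjusted p 0.00387). In resting cells of either sort, in total B-lineage cells and in the comparisons between sorts, none of the lists held a gene called by edgeR without the batch block. The largest medians there were those of the immediate early genes, at -0.47 in YFP+ resting and -0.54 in total resting cells.

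In control mice the 10 genes differed in where they stood among 9 B cell classes, described over the 4 control libraries with no test. Immunoglobulin made up 31.9% to 38.7% of the UMIs of control plasma cell sums and 0.991% to 2.20% in the other classes. This lowers the CPM of every other gene in plasma cells, so orders that place plasma cells below another class depend on it. Psat1 was at 73.3 CPM in germinal centre cells (59.1 to 83.0), 39.0 in activated (35.2 to 44.2) and 4.64 in resting cells (3.90 to 6.01), 3 ranges that do not overlap. Phgdh was at 128 CPM in activated, 110 in plasma and 104 in germinal centre cells and at 29.97 CPM in resting cells, where the ranges of the first 2 overlap. Asns was at 12.3 CPM in plasma cells (9.46 to 18.0) and at 0.0701 CPM in resting cells (0 to 0.158). Chac1 was at 5.25 CPM in plasma cells (2.82 to 8.51) and below 0.6 CPM in each other class. Slc3a2 was at 275 CPM in plasma cells (184 to 330), above the next class, activated cells at 122 CPM (98.4 to 138).

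Atf4 was spread over a narrow range of class means. It was at 113 CPM in germinal centre (80.8 to 135), 107 in plasma (97.2 to 121), 93.1 in activated (70.9 to 109), 87.8 in resting (68.9 to 117), 76.2 in B1, 73.9 in transitional, 73.6 in interferon-response, 71.9 in marginal zone and 66.5 in T-bet+ cells (54.7 to 83.4), and neighbours in this order overlapped. The immunoglobulin share given above is large enough that, with it left out of the sums, the plasma cell mean would stand above that of germinal centre cells. The order given here thus holds for CPM of all UMIs only. Ddit3 was highest in transitional cells at 28.5 CPM (19.99 to 35.1). Its lowest means were those of plasma cells at 11.3 CPM (4.70 to 18.2) and germinal centre cells at 11.5 CPM (8.33 to 12.9). With immunoglobulin left out, the plasma cell mean of Ddit3 would also stand above that of germinal centre cells. Sesn2 was highest in T-bet+ cells at 15.9 CPM (14.4 to 17.6), above marginal zone cells at 8.86 CPM (7.23 to 10.2). Trib3 did not pass 3.74 CPM and Slc7a11 did not pass 1.40 CPM in any control library and class.

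The genes most like the stress genes were found over 80 class by library sums, by Pearson's r of log2(CPM + 1) with the mean z score of the 5 members above 10 CPM on average (Atf4, Ddit3, Psat1, Phgdh and Slc3a2). Among 7927 genes these were Atp5g1 (0.868), Rps27l (0.864), Cycs (0.854), Ndufb6 (0.837) and Tmem97 (0.837). The sums share libraries, mice and depth, so these are descriptions.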

How the data were processed

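The files are matrices of UMI counts per gene and cell, which the authors deposited without normalization, 1 per library, from a SeekOne DD 3′ kit. The submitters' notes name the builds GRCm38 and mm10, and the aligner and counter were not given in the sources used here. Groups and batch numbers came from the labels. The authors filtered cells, integrated libraries with Harmony and merged replicates, with no doublet step stated. The study's filter (over 200 UMIs, over 100 genes, mitochondrial share up to 10%) was applied here and left 83704 of 83967 barcodes. Classes were rebuilt with Python 3.11.15 (numpy 2.4.6, scipy 1.17.1, pandas 2.3.3, igraph 0.11.9): 2000 variable genes centred and scaled within batch, 30 principal components, 20 neighbours and Leiden clusters at resolution 1, first over all cells and then within the B lineage. From the clustering 961 genes were left out, 110 of them the members and lists tested. Clusters took names from fixed marker lists, and 10402 B-lineage cells stayed unnamed, more of them in cKO than in control. Doublets, scored against simulated doublets, made up 1.50% to 3.59% of cells and were kept, with their removal as an alternative. In 3 YFP+ libraries the own threshold marked almost no cells and the median threshold of the other libraries was used.

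Counts were summed per class and library (20 or more cells) and tested with edgeR 4.0.16 (quasi-likelihood F test, TMM, filterByExpr, robust fit, R 4.3.3), within the libraries of a comparison. The Benjamini-Hochberg adjustment ran over all genes tested, with a threshold of 0.05. Log2 fold changes compare cKO to control and use 2 as prior count. The SE is the fold change divided by the square root of F. DESeq2 1.42.0 was an alternative, as were other size factors, no filter on low counts, no immunoglobulin genes, a stricter cell filter, 8 libraries in 1 model, other resolutions, classes defined on control libraries and each library left out. Leaving out plasma cells, adding an unnamed cluster to the resting class, reading the activated clusters singly, and the blocked fits of single clusters, smaller classes, T cells and the resting class with that cluster were chosen after seeing the data. The labels give each batch number to 1 library of each group. Deviations of same-numbered libraries from their group means had r between 0.565 and 0.967 over 3284 to 3325 genes, so the batch pairs the libraries, and blocked values stand beside each result whose calls they change. Blocked fits with 2 libraries a group leave 1 residual degree of freedom. On simulated counts of the YFP+ activated comparison (12515 genes), 87 of 99 genes changed by 2 on the log2 scale and 46 of 99 changed by 1 were recovered, with 9 of 12317 unchanged genes called.

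The rule was to name all 10 genes in each comparison and, from each other list, at most 4 called genes per direction by size of the fold change. The interactions, the comparisons between sorts, the total activated class, the single clusters and the smaller classes name some of the 10 genes and give the others as counts. Slc7a5 in YFP+ activated cells and Slc7a1 in the class interaction are named beyond the limit of 4. The members, the gene lists and the tests were chosen with earlier results of these data known. Gene positions are those of GENCODE vM21, and promoter sequences are those of RefSeq on GRCm38.p6.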

Additional observations from a re-analysis of the deposited data

Results flagged for a closer look

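The effect of the genotype differed between activated and resting YFP+ cells for 24 genes of the lists read here, by the interaction term of edgeR's fit with a term for the library. Values are the log2 effect in activated cells minus that in resting cells, followed by the adjusted p over all genes tested. The same libraries gave both sums, and 14.8% of all genes were called in this test. Without the library term 0.0155% of all genes were called, with none of the 10 genes among them.

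Of the 8 stress genes tested only Atf4 was called (1.33, 2.24e-12). Of 12 genes tested of the eIF2 kinase, phosphatase and eIF2B list, Ppp1r15a, a phosphatase subunit that reverses eIF2 phosphorylation (0.80, 5.42e-05), and Eif2b3 (0.52, 0.0278) were higher, and Eif2ak1, the heme-sensing kinase (-0.66, 0.00202), was lower. Of 22 genes tested of the further ATF4 programme, Atf5 (2.21, 1.28e-08), Eif4ebp1 (1.89, 4.91e-19), Ddit4, an inhibitor of TORC1 (1.27, 2.73e-05), Slc38a2, an amino acid importer (0.86, 7.18e-06), and Slc7a1, an importer of cationic amino acids (0.48, 0.0227), were higher. Ddit4 was not called in either class alone. Of 20 synthetases Farsb (-0.81, 1.12e-05) was lower. Of 14 genes of the endoplasmic reticulum list Creld2 (0.59, 0.00941) and Calr (0.52, 0.0298) were higher while Pdia4 (-0.89, 2.40e-06) and Edem1 (-0.44, 0.0419) were lower.

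Of 10 genes tested of the handling and immediate early list, 4 were higher: Jun (1.28, 4.73e-12), Junb (0.97, 3.18e-06), Ier2 (0.96, 5.06e-07) and Hsph1 (0.51, 0.0232). Of 10 p53 targets tested Cdkn1a (4.76, 9.25e-23), Ccng1 (1.45, 1.44e-13), Zmat3 (1.13, 0.00848) and Aen (0.74, 0.00213) were higher, and Trp53inp1 (-0.59, 0.0138) and Sesn1 (-0.53, 0.0172) were lower. Cdkn1a stood at 1.81 and 6.33 CPM in control and 1.11 and 1.07 CPM in cKO resting YFP+ cells, against 6.25 and 2.77 CPM and 28.2 and 53.9 CPM in activated YFP+ cells. How far these lists and Atf4 moved in the same cells was not tested.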

How the results depend on the processing

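Atf4 kept its direction in YFP+ activated cells under all 15 alternatives (1.34 to 1.91 on the log2 scale) and lost its call only with classes defined on control libraries. The number of the 10 genes called there was 2 as reported and 1 with DESeq2, with RLE size factors, without doublets and with all 8 libraries in 1 model. It was 0 with control-defined classes and 1 to 2 with a library left out (1 without cKO YFP+ 2). Without cKO YFP+ 1 or control YFP+ 2 it stayed at 2 while Ddit3 lost its call, because Sesn2 gained one (1.12 and 1.43, edgeR adjusted p 0.0280 and 0.000532). All genes called ran from 428 (control-defined classes) to 3666 (batch block), with 2220 without a filter on low counts, against 1410. In YFP+ germinal centre cells control-defined classes called 3 genes against 0, and Atf4 (1.45) and Sesn2 (1.47) turned to the other direction. Class membership differed there by construction.

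With the batch number as a block the count was 4 in YFP+ B-lineage cells (1 as reported), 3 in YFP+ resting cells (0), 3 in YFP+ activated cells (2), 2 in total B-lineage cells (0), 2 in total resting cells (0), 1 in the interaction of genotype and sort (0) and 2 in cKO resting cells between sorts (0), and it stayed at 0 in YFP+ germinal centre, YFP+ plasma and control resting cells between sorts. Blocked fits of the single clusters, smaller classes and T cells were added after seeing the data and called 2 genes in the dividing (1 without the block) and 5 in the non-dividing YFP+ activated cluster (0), with the others in the report. YFP+ B-lineage cells without plasma cells gave 0, and 1 to 2 with a library left out (2 without control YFP+ 1 or 2). YFP+ resting cells gave 0 to 1 (1 without control YFP+ 2), and total B-lineage cells 0 to 1 (1 without cKO total 1 or control total 2) and 1 with DESeq2. The class interaction gave 0 without the library term, and 2 at resolution 1.5 and 2 with control-defined classes, against 1. All genes called over the alternatives ran from 908 to 3145 (1215 as reported) in YFP+ B-lineage, 13 to 2351 (18) in YFP+ resting, 142 to 3677 (142, with 3677 under control-defined classes) in YFP+ germinal centre, 44 to 322 (131) in YFP+ plasma, 2 to 1712 (2) in total B-lineage and 6 to 2344 (25) in total resting cells. They ran from 0 to 209 (0) for the sort interaction, 2 to 2458 (1917) for the class interaction, 0 to 3321 (0) and 0 to 193 (3) between the sorts of cKO and control. Where no alternative's own construction shows it, the cause was not tested.

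Of 1242 values of single genes under an alternative, 92 had the other sign with a call in neither fit, 2 reversed, 11 lost a call and 27 gained one. With 2 libraries a group, Trib3, Chac1 and Slc7a11 were limited by counting in the classes where they held a few UMIs. Chac1 held more in control YFP+ plasma cells, at 154 and 111 UMIs.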

Other observations

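B-lineage cells that took no class name were more frequent in cKO, at 21.5% and 40.5% of the lineage in cKO YFP+ libraries against 9.64% and 10.6% in control YFP+ libraries. They came from unlike clusters: a cluster led by Klhdc2, St7 and Il4i1 gave 95.7% and 98.2% of their UMIs in cKO YFP+ libraries, and a cluster led by Parm1, Cmah and Myo1f gave 99.9% and 99.9% in control YFP+ libraries. Atf4 stood at 81.4 and 103 CPM in the first cluster in cKO YFP+ and at 63.4 and 99.9 CPM in the second in control YFP+ libraries, which is no comparison of genotypes within 1 cluster.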
